A study of Mus musculus with 29 samples.

Results

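Interferon-stimulated genes are the genes that a cell switches on after it senses type I interferon, and 41 of them form the set described here. The set was chosen by name, with earlier results of these data known, so member shares set against all genes below are descriptions. For each, the value comes from the probe set that carries that symbol alone and has the highest mean over the 27 transfected arrays. By that rule 38 of the 41 genes were measured, among 19938 genes measured in all, and Isg15, Gbp2 and Ifi44 had no such probe set. The cells were C2C12, a mouse myoblast line that can be grown as dividing cells or made to fuse into myotubes. The transfected cells were at passage 27 in DMEM with 10% fetal bovine serum. For the untransfected cells, passage and serum are not given here. At 60 to 80% confluence, cells received 50 nM of a Qiagen mimic of miR-145, Let-7b, miR-29a, miR-1, miR-22, miR-365 or miR-34a, or of AllStar, a negative control oligonucleotide, with the HiPerFect lipid reagent, and total RNA was taken 36 h later. The design names 3 independent experiments, and each of the 7 mimics has 3 arrays. The control has 3 arrays and a technical repeat of each, averaged here to 3 values. Untransfected differentiated myotubes and untransfected proliferating myoblasts have 1 array each, without replicates, for 29 arrays in all. All groups come from 1 cell line, so they share its genotype, and which strand of each microRNA the mimics carry is not given in the labels.

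Type I interferon binds the receptor pair Ifnar1 and Ifnar2, whose kinases Jak1 and Tyk2 phosphorylate Stat2. Stat2 acts in a complex with Irf9, which binds the interferon-stimulated response element (ISRE) in front of target genes. Cells make interferon, and can raise part of the same gene set directly through Irf3 and Irf7, when sensors such as Ifih1, Rig-I or Tlr3 meet foreign RNA, synthetic double-stranded RNA included. Many of the products block virus entry, replication or translation.

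The start regions of 4 of the genes are printed because they show the element that the complex reads (Ifit3, Ifit1 and Cxcl10, among the members that differed most between samples) beside a member whose start region lacks it (Irf1). The sequences are those of RefSeq on GRCm38.p6, from 250 bases before to 50 bases after the annotated start, 5′ to 3′ on the gene's strand. Ifit3 lies at chr19:34583279-34583578 on the plus strand, Ifit1 at chr19:34640639-34640938 on the plus strand, Cxcl10 at chr5:92348840-92349139 on the minus strand and Irf1 at chr11:53769764-53770063 on the plus strand. Capitals mark matches to the ISRE pattern TTTCNNTTTC or its other strand GAAANNGAAA, and in Irf1 the match to TTCNNNGAA, the gamma-activated site (GAS) pattern that reads the same on both strands.
Ifit3: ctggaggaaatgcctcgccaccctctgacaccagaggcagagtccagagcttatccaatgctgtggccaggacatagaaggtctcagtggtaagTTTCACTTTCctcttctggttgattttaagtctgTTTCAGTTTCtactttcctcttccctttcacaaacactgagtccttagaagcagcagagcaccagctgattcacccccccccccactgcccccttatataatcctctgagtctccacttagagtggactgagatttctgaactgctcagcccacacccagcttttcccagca
Ifit1: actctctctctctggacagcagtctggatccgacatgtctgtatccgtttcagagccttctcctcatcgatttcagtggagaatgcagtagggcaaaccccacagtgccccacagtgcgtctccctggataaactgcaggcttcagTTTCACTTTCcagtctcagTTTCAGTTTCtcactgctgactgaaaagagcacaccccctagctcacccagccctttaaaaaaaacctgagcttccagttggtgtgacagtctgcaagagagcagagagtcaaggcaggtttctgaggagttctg
Cxcl10: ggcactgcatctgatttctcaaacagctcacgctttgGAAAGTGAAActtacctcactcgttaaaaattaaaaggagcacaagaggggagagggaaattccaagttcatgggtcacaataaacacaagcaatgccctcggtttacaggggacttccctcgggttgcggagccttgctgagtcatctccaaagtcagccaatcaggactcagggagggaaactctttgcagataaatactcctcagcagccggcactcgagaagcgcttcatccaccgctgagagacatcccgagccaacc
Irf1: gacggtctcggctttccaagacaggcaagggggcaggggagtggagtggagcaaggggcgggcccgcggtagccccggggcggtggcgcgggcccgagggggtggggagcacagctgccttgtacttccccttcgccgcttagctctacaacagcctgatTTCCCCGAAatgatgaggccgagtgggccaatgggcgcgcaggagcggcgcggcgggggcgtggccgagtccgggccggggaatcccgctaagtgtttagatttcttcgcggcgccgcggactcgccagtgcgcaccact

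Ifit3 and Ifit1 each held 2 ISRE matches, the first beginning 156 bases before the start in Ifit3 and 104 bases before it in Ifit1. Cxcl10 held 1, beginning 213 bases before the start on the other strand. Irf1 held no ISRE match in this window and a GAS match 90 bases before its start. Start regions were available for 28 of the 38 measured members. An ISRE match stood in 12 of these 28 genes (42.9%), namely Stat2, Ifih1, Eif2ak2, Ifit1, Ifit3, Oas1a, Oas3, Rsad2, Bst2, Gbp3, Trim30a and Cxcl10, against 3.99% of 27025 genes and 3.44% of 32851 start regions in the table. A GAS match stood in 6 of the 28 (21.4%), against 9.55% of genes and 8.3% of start regions. A match is a run of letters and says nothing of binding in these cells.

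Expression is given as the deposited log2 value, so a difference of 1 is a doubling of signal. After RMA, a normalization that equalises the arrays' distributions, array medians lay between 7.24 and 7.39 and values between 2.35 and 14.65. The median of the probe sets with no listed gene, 6.67, is used below as a mark of dim signal. At that mark 13 of the 38 members had a dimmer mean in control cells, among them Ifit3, Mx1, Mx2, Rsad2, Cmpk2 and Usp18. The 10 genes listed as myoblast markers include Myog and Mymk, so their mean does not mark the dividing state alone. It lay between 11.23 and 11.48 in miR-145 samples and between 11.19 and 11.38 in control samples. In the myotube sample it was 11.72 and in the myoblast sample 11.53. Myog, an early differentiation factor, stood at 11.68 in the array labelled myotube and at 11.56 in the one labelled myoblast. One library stands apart in the set described here, miR-145 replicate 3. There, 108 genes lay more than 1 log2 unit above the mean of the other miR-145 replicates, and 36 of them are members. The largest such count for an array of any other group was 27. Across all genes, the values of that replicate correlated at 0.9913 and 0.9916 with replicates 1 and 2 of miR-145, which correlated at 0.9971 with each other, while replicates of the other groups correlated between 0.9938 and 0.999. For that reason the miR-145 calls below are given with and without it, with the values of the 3 replicates for most of the genes named.

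The set stood higher in miR-145 cells than anywhere else in the study, slightly in replicates 1 and 2 and strongly in replicate 3. The mean log2 value over the 38 members was 7.95, 7.82 and 10.54 in the 3 miR-145 replicates. In the other 18 mimic samples and the 3 control values it lay between 7.05 and 7.53. The next highest group was miR-22, from 7.37 to 7.53, followed closely by miR-29a (7.34 to 7.46) and miR-365 (7.32 to 7.45), whose ranges overlap it. Control cells ranged from 7.24 to 7.31 and miR-1 cells, the lowest group, from 7.05 to 7.15. The mean over all genes differed far less, at 8.05, 8.01 and 8.06 in the 3 miR-145 samples and 7.99, 8.0 and 8.0 in the control samples. Because RMA equalises the arrays' distributions, that mean cannot show whether other genes changed. In whole-culture RNA, a few cells with much of a transcript and many cells with little of it cannot be told apart.

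**Figure D1:**
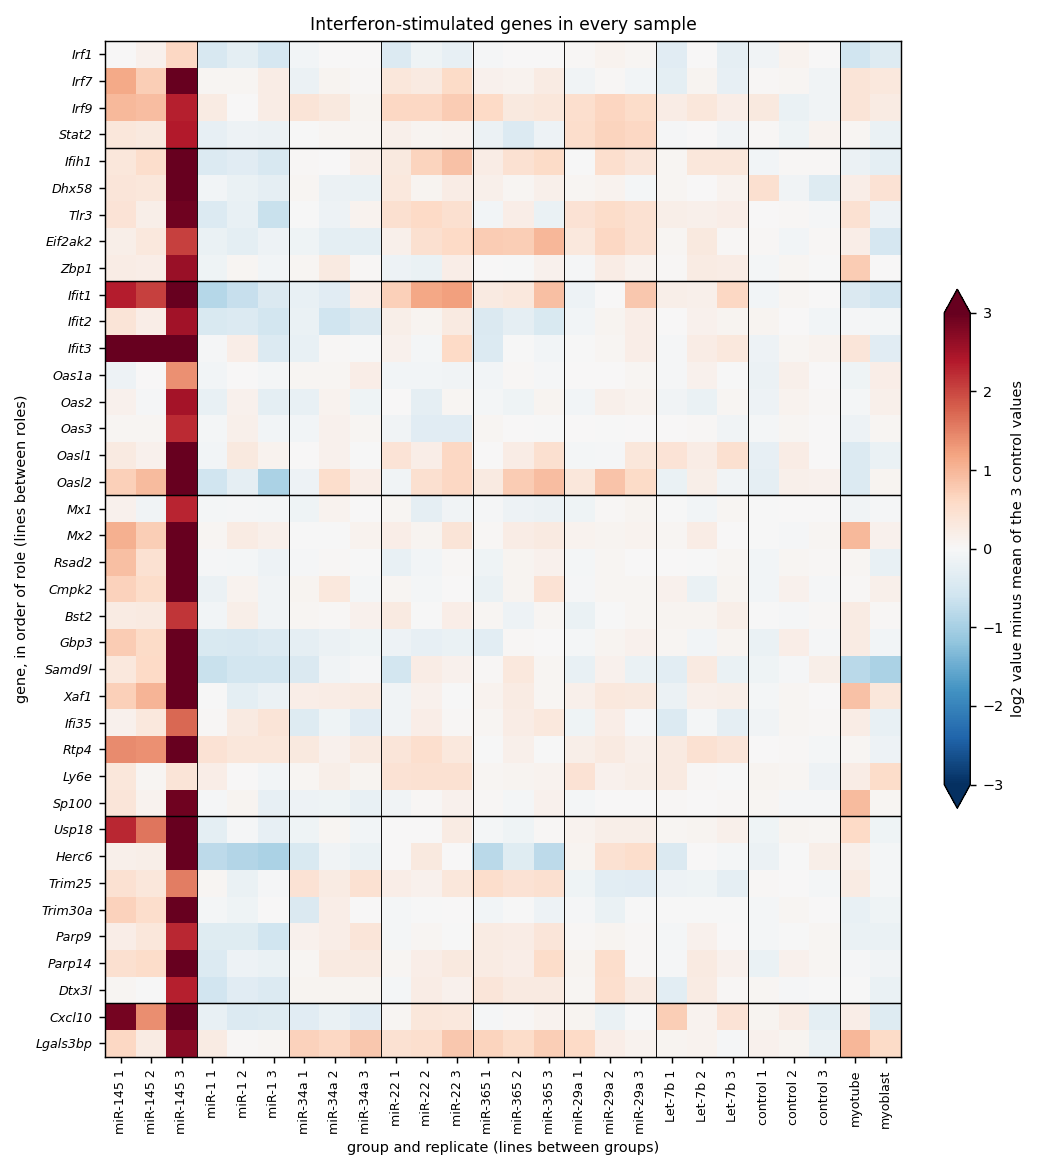
Each row is 1 of the 38 measured interferon-stimulated genes, ordered by role, and each column 1 sample; colour is the log2 value minus the mean of the 3 control values, capped at 3 in either direction. The third miR-145 column is dark for nearly every gene, the first and second are darkest for Ifit3 and paler for other genes, and the miR-1 columns are mostly pale blue.

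The 3 miR-145 replicates differed in how far the members stood above control. In replicate 3 the median member lay 2.95 log2 units above the control mean. There, 36 of 38 members lay more than 1 unit above it, as did 160 of all 19938 genes. In the same sample 37 of 38 members exceeded all 21 values of the other groups. Ly6e was the exception. The same position above all 21 other values was held by 20.1% of all genes in that sample. In replicate 1 the median member lay 0.37 units above the control mean and 16 of 38 exceeded all 21 other values, as did 6.24% of all genes. In replicate 2 the median was 0.35 and the count was again 16 of 38, against 3.53% of all genes. In both of these replicates together, 13 members exceeded all 21 other values, against 1.35% of all genes. For 28 members all 3 miR-145 values lay above all 3 control values, against 14.8% of all genes.

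**Figure D2:**
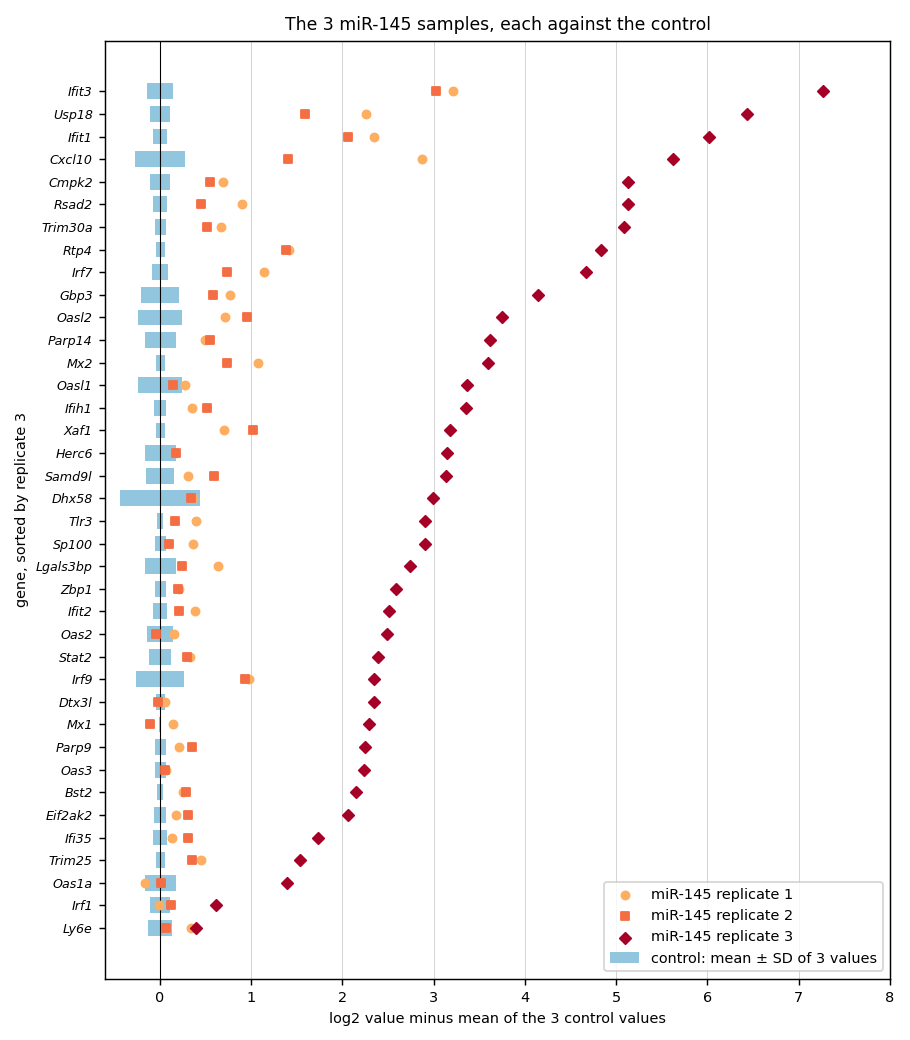
For each member the points give the log2 value in miR-145 replicates 1, 2 and 3 minus the mean of the 3 control values, and the bar gives that mean with its SD. Replicate 3 lies far right of the other replicates for all genes except Irf1 and Ly6e, whereas Ifit3, Ifit1, Usp18, Cxcl10 and Rtp4 lie more than 1 unit above control in all 3.

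With all arrays in the model, 16 of 38 members passed as higher in miR-145 cells than in control cells and 0 as lower (limma, Benjamini-Hochberg adjusted p under 0.05 over all 19938 genes), and 3.85% of all genes passed as higher. At an unadjusted p under 0.05, 36 members were higher and 0 lower. The share of all genes at that unadjusted threshold was not counted, here or below. Without replicate 3 the count was again 16, against 2.29% of all genes. Of the 16, 14 were shared. Lgals3bp and Oasl2 passed with all arrays alone, and Cmpk2 and Trim30a without replicate 3 alone. The median log2 difference over the members was 1.22 with all arrays and 0.38 without replicate 3, beside 0.04 and 0.02 over all genes. The count with all arrays was 10 without control replicate 1, 9 without control replicate 3, 33 without miR-145 replicate 1, 36 without miR-145 replicate 2 and 1 (Ifit3) when only these groups entered the model. Of all 19938 genes, 597, 381, 674, 759 and 373 passed as higher in those refits, in the same order. Set against the mean of the other 6 mimics, a difference that uses no control value although the control group shares in the estimate of the spread, 35 of 38 members were higher in miR-145 cells (10.3% of all genes), and 22 without replicate 3 (6.34% of all genes). Dtx3l, Ly6e and Oas1a were the 3 that did not pass there.

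Among the transcription factors of the response, Irf7, Irf9 and Stat2 rose in miR-145 cells. Irf7, which drives later interferon gene transcription, had log2 values of 7.74, 7.34 and 11.27 in miR-145 cells, against 6.64, 6.67 and 6.50 in control cells. All 3 miR-145 values lay above every other mimic sample, which ran from 6.31 to 7.17 with a median of 6.67. The difference was 2.18 ± 0.54 log2 (SE, adjusted p = 0.015 by limma), and 0.94 ± 0.12 without replicate 3 (adjusted p = 6.6e-05 by limma). Leaving out control replicate 3 alone ended this call, at a difference of 2.13.

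Irf9, the DNA-binding partner of Stat2, had values of 8.71, 8.66 and 10.07 in miR-145 cells, against 8.02, 7.53 and 7.63 in control cells. Its replicates were more even than those of Irf7, and the difference was 1.42 ± 0.22 log2 (adjusted p = 0.0003 by limma), or 0.96 without replicate 3. Stat2 had values of 9.08, 9.05 and 11.14 in miR-145 cells, against 8.78, 8.62 and 8.86 in control cells, and the other mimic samples reached 9.41. The first and second miR-145 replicates were thus inside the range of the other mimics. Its difference was 1.00 ± 0.30 log2 (adjusted p = 0.048 by limma) and 0.31 without replicate 3 (adjusted p = 0.040), and it no longer passed when any 1 control replicate was left out, at 0.94 to 1.06. Irf1, a factor best known as a target of interferon gamma, had values of 9.87, 9.99 and 10.48 in miR-145 cells, against 9.77, 9.98 and 9.87 in control cells. Its difference of 0.24 log2 did not pass (adjusted p = 0.273 by limma).

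The sensors stood well above control only in replicate 3. Ifih1, the cytoplasmic sensor of long double-stranded RNA also called MDA5, had values of 7.34, 7.51 and 10.34 in miR-145 cells, against 6.91, 7.03 and 7.02 in control cells. Dhx58, a regulator of that sensor, had values of 6.61, 6.59 and 9.24 in miR-145 cells, against 6.73, 6.15 and 5.87 in control cells. Tlr3, the endosomal sensor of double-stranded RNA, had values of 7.09, 6.86 and 9.61 in miR-145 cells, against 6.70, 6.72 and 6.66 in control cells. In each case the first and second miR-145 replicates lay close to or inside the range of the other 18 mimic samples, which reached 7.86 for Ifih1, 6.57 for Dhx58 and 7.29 for Tlr3. None of the 5 sensors passed against control, with or without replicate 3. With all arrays the adjusted p by limma was 0.052 for Ifih1, 0.065 for Dhx58, 0.077 for Tlr3, 0.071 for Eif2ak2 (the kinase PKR, which halts translation) and 0.094 for Zbp1, a sensor of Z-form nucleic acid. In replicate 3 their differences from the control mean ran from 2.06 to 3.35, in replicate 1 from 0.17 to 0.39 and in replicate 2 from 0.16 to 0.52.

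Ifit3 and Ifit1 gave the largest measured differences from control in the set, and Oas1a one of the smallest. Ifit3, whose product acts with that of Ifit1 on viral RNA, had values of 8.53, 8.33 and 12.59 in miR-145 cells, against 5.16, 5.37 and 5.43 in control cells. Every other mimic sample lay between 4.90 and 5.91, with a median of 5.30. All 3 miR-145 values were therefore more than 2 log2 units above any other transfected sample. The difference was 4.50 ± 0.61 log2 (adjusted p = 5.3e-05 by limma), and 3.11 ± 0.17 (adjusted p = 2.5e-10) without replicate 3. Its control values lie below the dim mark of 6.67, so the size of the difference is measured from a dim baseline. It passed under all 16 alternatives tried. The refit without the dimmest genes is not among them, because Ifit3 was too dim to be kept there.

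Ifit1, whose product binds viral RNA caps, had values of 9.27, 8.98 and 12.94 in miR-145 cells, against 6.83, 6.99 and 6.94 in control cells, and other mimic samples reached 8.16 in miR-22 replicate 3. The groups did not overlap. The difference was 3.48 ± 0.58 log2 (adjusted p = 0.0005 by limma), or 2.21 ± 0.24 without replicate 3 (adjusted p = 5.1e-06). Ifit2, the other Ifit gene of the set, had 8.28, 8.11 and 10.42 in miR-145 cells, against 7.98, 7.91 and 7.82 in control cells, and did not pass (adjusted p = 0.060 by limma). Oasl2, a homolog of the RNA-activated Oas synthetases, had 9.0, 9.24 and 12.04 in miR-145 cells, against 8.02, 8.44 and 8.43 in control cells. Its difference was 1.80 ± 0.46 log2 (adjusted p = 0.019 by limma) with all arrays, and 0.83 ± 0.24 (adjusted p = 0.054) without replicate 3; it was also lost without control replicate 1 (1.66) or 3 (1.87). Oas1a, Oas2, Oas3 and Oasl1 did not pass, and the first and second miR-145 replicates of Oas1a (6.76 and 6.92) lay among the control values of 6.74, 7.08 and 6.92. Ifit3 and the non-member Ifit3b, and Oas1a and its close relatives, are near-identical copies, and the probes could share signal between them.

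Among the other effectors, Rtp4, Rsad2, Mx2, Gbp3 and Xaf1 rose both with and without replicate 3. Rtp4, a chaperone of receptors that also limits some viruses, had values of 7.61, 7.58 and 11.03 in miR-145 cells, against 6.22, 6.24 and 6.14 in control cells. Other mimic samples lay between 6.18 and 6.70, so that the groups did not overlap. The difference was 2.54 ± 0.49 log2 (adjusted p = 0.0020 by limma), or 1.40 ± 0.08 without replicate 3 (adjusted p = 4.1e-10). Rsad2, the antiviral enzyme viperin, had values of 7.05, 6.60 and 11.28 in miR-145 cells, against 6.06, 6.21 and 6.19 in control cells, a difference of 2.16 ± 0.64 log2 (adjusted p = 0.043 by limma). Without replicate 3 it was 0.68 ± 0.11 (adjusted p = 0.0005), and with all arrays it no longer passed when any 1 control replicate was left out, at 2.11 to 2.19. Cmpk2, the nucleotide kinase encoded beside Rsad2 on chromosome 12, had 6.10, 5.96 and 10.54 in miR-145 cells, against 5.32, 5.54 and 5.38 in control cells. It missed the threshold with all arrays (2.12 log2, adjusted p = 0.051 by limma) and passed without replicate 3 (0.62, adjusted p = 0.013).

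Mx2, a dynamin-like antiviral GTPase, had values of 6.22, 5.88 and 8.73 in miR-145 cells, against 5.13, 5.11 and 5.20 in control cells. Its difference was 1.80 ± 0.39 log2 (adjusted p = 0.0056 by limma), or 0.90 without replicate 3. Its relative Mx1, at 4.65, 4.40 and 6.80 in miR-145 cells against 4.49, 4.52 and 4.52 in control cells, exceeded the controls in replicates 1 and 3 alone and did not pass (adjusted p = 0.197 by limma). Gbp3, a guanylate-binding GTPase, had values of 7.26, 7.06 and 10.62 in miR-145 cells, against 6.29, 6.70 and 6.46 in control cells. The difference was 1.83 ± 0.50 log2 (adjusted p = 0.028 by limma), or 0.67 without replicate 3 (adjusted p = 0.0008), and with all arrays it was lost on leaving out any 1 control replicate, at 1.73 to 1.94. Xaf1, an inducer of cell death, had values of 7.50, 7.82 and 9.97 in miR-145 cells, against 6.74, 6.84 and 6.80 in control cells. It rose by 1.63 ± 0.34 log2 (adjusted p = 0.0041 by limma), and by 0.86 without replicate 3. Bst2 (0.89 log2), Samd9l (1.34), Ifi35 (0.72) and Sp100 (1.13) did not pass. Ly6e, a bright surface protein gene, had 13.53, 13.26 and 13.59 in miR-145 cells, against 13.28, 13.26 and 13.05 in control cells, and was the single member that replicate 3 did not place above all other groups.

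Of the ISG15, ubiquitin and ADP-ribose enzymes, Usp18 moved most. Usp18 removes ISG15 from proteins and damps signalling at the interferon receptor. It had values of 8.78, 8.12 and 12.95 in miR-145 cells, against 6.40, 6.61 and 6.57 in control cells. No other mimic sample exceeded 6.77. The difference was 3.43 ± 0.65 log2 (adjusted p = 0.0016 by limma), or 1.93 ± 0.13 without replicate 3 (adjusted p = 6.1e-09). Trim30a, a TRIM-family protein, had values of 6.14, 5.98 and 10.55 in miR-145 cells, against 5.41, 5.53 and 5.46 in control cells; it passed without replicate 3 (0.60 log2, adjusted p = 0.0042 by limma) and missed the threshold with all arrays (2.09, adjusted p = 0.052). Herc6, the ISG15 ligase of the mouse, had values of 7.06, 7.07 and 10.05 in miR-145 cells, against 6.73, 6.89 and 7.08 in control cells. Its first and second replicates lay inside the control range, and it did not pass (adjusted p = 0.132 by limma).

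Trim25, the ligase that ubiquitinates Rig-I, had values of 9.27, 9.17 and 10.35 in miR-145 cells, against 8.86, 8.84 and 8.76 in control cells. It rose by 0.78 ± 0.18 log2 (adjusted p = 0.0096 by limma), and by 0.40 without replicate 3. Parp14, an ADP-ribosyltransferase, had values of 7.63, 7.69 and 10.77 in miR-145 cells, against 6.95, 7.28 and 7.19 in control cells. It rose by 1.55 ± 0.46 log2 (adjusted p = 0.042 by limma), and by 0.52 without replicate 3 (adjusted p = 0.041); with all arrays it was lost on leaving out any 1 control replicate, at 1.46 to 1.62. Parp9 and its partner Dtx3l, with differences of 0.94 and 0.79 log2, did not pass. Of the secreted products, Cxcl10, a chemokine that draws T cells, had values of 9.97, 8.50 and 12.72 in miR-145 cells, against 7.18, 7.32 and 6.80 in control cells. It was above the highest value of the other mimics, 7.83 in Let-7b replicate 1, in all 3 miR-145 samples. The difference was 3.30 ± 0.54 log2 (adjusted p = 0.0004 by limma), or 2.14 ± 0.25 without replicate 3 (adjusted p = 1.5e-05). Lgals3bp, a secreted galectin-binding glycoprotein, had 9.72, 9.34 and 11.83 in miR-145 cells, against 9.22, 9.17 and 8.90 in control cells. It passed with all arrays (1.20 log2, adjusted p = 0.039 by limma) but not without replicate 3 (0.44, adjusted p = 0.092), and the call with all arrays was lost on leaving out any 1 control replicate (1.1 to 1.27).

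**Figure D3:**
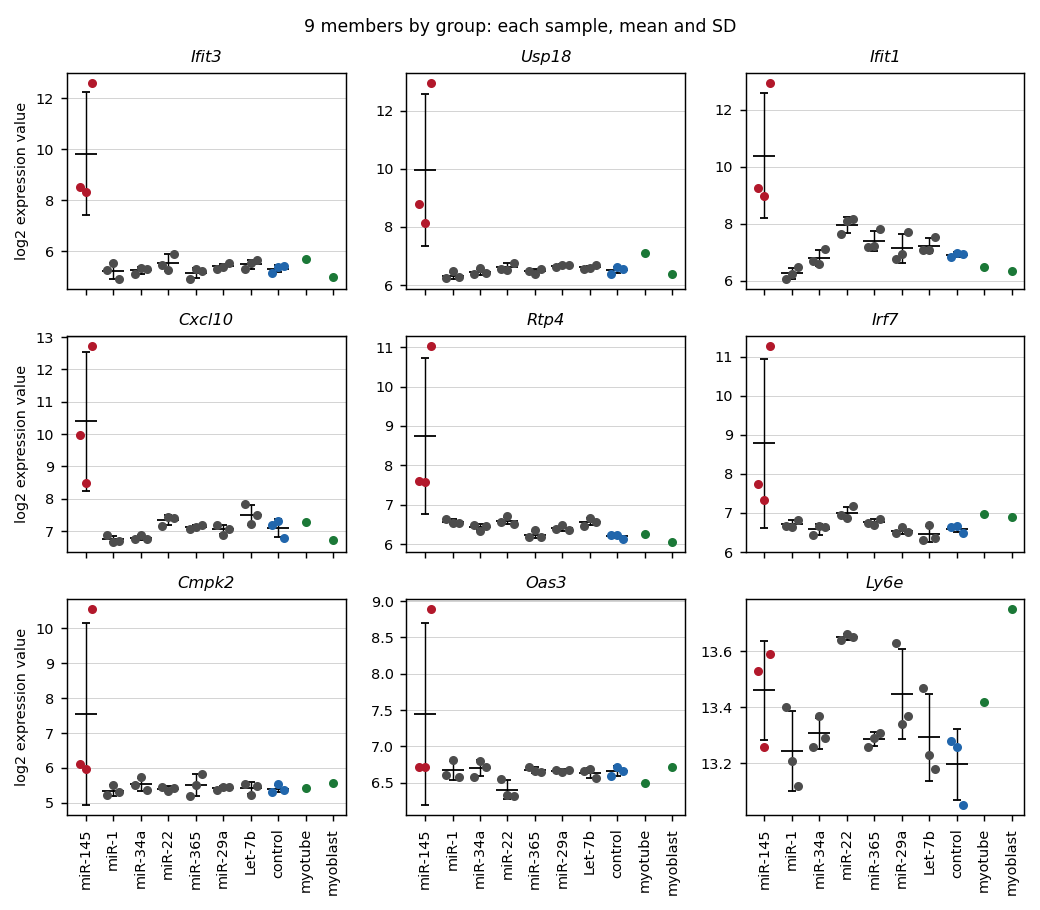
Log2 values of 9 members in every sample, with the mean and SD of each group of 3; the myotube and myoblast have 1 array each. Ifit3, Usp18, Ifit1, Cxcl10, Rtp4 and Irf7 stand above all other groups in all 3 miR-145 samples, Oas3 in replicate 3 alone, and Ly6e is highest among transfected samples in miR-22 cells.

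The members with an ISRE match in their start region and those without were both raised in replicate 3. The median difference from the control mean in replicates 1, 2 and 3 was 0.51, 0.48 and 3.74 for the 12 members with a match, and 0.38, 0.28 and 2.91 for the 16 without. For the 10 members with no start region in the table it was 0.35, 0.34 and 2.79. These are descriptions of 3 samples, and the difference between the sets was not tested. Ifit3, Ifit1 and Cxcl10, printed above, held matches, but so did Oas1a, whose difference in replicate 3 was 1.39. Among members without a match, that difference was 0.61 for Irf1, printed above, but 5.13 for Cmpk2 and 4.67 for Irf7.

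Around the members, the rest of the interferon pathway moved less. None of 16 measured interferon ligand genes passed against control with all arrays (2 at an unadjusted p under 0.05 by limma), and Ifna2 alone passed, as lower, without replicate 3 (-0.31 log2). The mean of the 16 ligands was 6.37, 6.40 and 6.77 in miR-145 cells, against 6.28, 6.46 and 6.45 in control cells, and 9 of them were dimmer in control cells than the mark of 6.67. Replicate 3 was nonetheless the highest sample for Ifnb1, at 6.14 beside 5.46 in both other miR-145 replicates, 5.11 to 5.64 in the other mimics and 5.19 to 5.52 in control cells. Ifna4 was likewise at 7.17 there, beside 5.99 and 5.80 in the other miR-145 replicates, and between 5.70 and 5.89 in control cells. Ifnz, the brighter interferon zeta gene, had 9.53, 9.83 and 9.81 in miR-145 cells, against 9.72, 9.94 and 10.02 in control cells. Of 10 receptor and proximal signalling genes, Stat3 alone passed, at 10.89, 10.97 and 10.87 in miR-145 cells against 11.23, 11.31 and 11.37 in control cells (-0.40 log2, adjusted p = 0.0007 by limma, and -0.38 without replicate 3). Among all genes, 3% passed as lower with all arrays and 1.35% without replicate 3. Ifnar1 had 10.08, 9.98 and 9.87 in miR-145 cells, against 10.15, 9.98 and 10.03 in control cells, and did not pass. Ifnar2, at 10.55, 10.60 and 10.39 in miR-145 cells against 10.55, 10.68 and 10.65 in control cells, did not pass either.

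Of 20 other sensors and adaptors, 4 rose (3.85% of all genes) and 1 fell (3% of all genes). Ddx58, which encodes Rig-I, had 9.91, 9.99 and 12.10 in miR-145 cells, against 9.37, 9.53 and 9.62 in control cells (1.16 log2, adjusted p = 0.035 by limma). The RNA-editing enzyme gene Adar, at 9.26, 9.27 and 10.31 in miR-145 cells against 9.08, 8.88 and 8.90 in control cells, rose by 0.66. The adaptor gene Myd88, at 10.51, 10.16 and 10.94 in miR-145 cells against 10.12, 10.08 and 10.03 in control cells, rose by 0.46. The DNA exonuclease gene Trex1, at 8.30, 8.14 and 8.78 in miR-145 cells against 7.86, 8.10 and 8.02 in control cells, rose by 0.41. Traf6, a ubiquitin ligase of Toll-like receptor signalling, had 9.57, 9.22 and 9.03 in miR-145 cells, against 10.00, 9.70 and 9.74 in control cells (-0.54 log2, adjusted p = 0.0078). Without replicate 3 none of these 5 passed, at 0.44 for Ddx58, 0.31 for Adar, 0.25 for Myd88, 0.22 for Trex1 and -0.42 for Traf6, and Ddx60 alone did, at 0.38 log2. Of 12 negative regulators none passed (limma, 4 at an unadjusted p under 0.05), and Socs1 stood at 9.11, 8.96 and 9.89 in miR-145 cells, against 8.89, 9.04 and 8.91 in control cells. Ptpn11, a phosphatase gene, had 11.35, 11.40 and 11.51 in miR-145 cells, against 11.33, 11.19 and 11.29 in control cells.

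Of 50 further interferon-induced genes, 12 rose (3.85% of all genes) and 3 fell (3%) with all arrays, and 8 rose (2.29%) and 2 fell (1.35%) without replicate 3. Gbp7, a guanylate-binding protein gene, had 7.70, 7.77 and 11.31 in miR-145 cells, against 6.70, 6.72 and 6.80 in control cells (2.19 log2, adjusted p = 0.010 by limma, and 0.99 without replicate 3). Iigp1, an immunity-related GTPase gene, had 5.29, 5.03 and 9.35 in miR-145 cells, against 4.42, 4.59 and 4.33 in control cells (2.11 log2, adjusted p = 0.035 by limma, and 0.71 without replicate 3). The others that rose with all arrays were Daxx, Ifi27, Ifit3b, Irgm1, Lgals9, Nmi, Oas1b, Parp10, Slfn8 and Tdrd7, by 0.61 to 2.37. Without replicate 3, Ifit3b (0.89, against 2.37 with it), Oas1b (0.60, against 1.51), Irgm1 (0.48, against 1.00), Ifi27 (0.37, against 0.61) and Daxx (0.30, against 0.62) still passed. Lgals9 (0.36), Nmi (0.31), Parp10 (0.35), Slfn8 (0.39) and Tdrd7 (0.34) no longer passed, and Phf11d passed instead (0.43). The 3 that fell were Ifitm1, Ifitm2 and Plscr1, of which Ifitm2 (-0.18 log2) did not pass without replicate 3 (-0.15). Ifitm1, which encodes a membrane protein that blocks virus entry, had 10.02, 9.66 and 9.42 in miR-145 cells, against 10.63, 10.51 and 10.39 in control cells (-0.81 log2, adjusted p = 0.0003 by limma, and -0.67 without replicate 3). Plscr1, a phospholipid scramblase gene, had 10.90, 10.57 and 10.57 in miR-145 cells, against 11.22, 11.22 and 11.34 in control cells (-0.58 log2, and -0.53 without replicate 3). In both genes no miR-145 value reached the control range, and replicate 3 was not above the other miR-145 replicates.

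Inflammatory genes under NF-kB and markers of other cell types gave few calls. Of 19 NF-kB and inflammatory genes, Nfkb2 alone passed, as lower, at 9.83, 9.74 and 9.56 in miR-145 cells against 10.25, 10.12 and 10.06 in control cells (-0.43 log2, adjusted p = 0.0015 by limma, and -0.36 without replicate 3). Of all genes, 3% passed as lower with all arrays and 1.35% without replicate 3. The mean of the 19 genes was 8.37, 8.19 and 8.59 in miR-145 cells, against 8.41, 8.37 and 8.30 in control cells. In the other mimic samples that mean lay between 8.19 and 8.56. Il6 stood at 4.60, 4.87 and 6.95 in miR-145 cells, against 4.82, 4.96 and 4.95 in control cells. None of 11 leukocyte markers passed (limma, 2 at an unadjusted p under 0.05). Their mean was 6.55, 6.44 and 6.55 in miR-145 cells, against 6.49, 6.52 and 6.49 in control cells, and 7 of the 11 were below the dim mark in control cells. Ptprc, the pan-leukocyte marker, was at 5.69, 5.55 and 5.84 in miR-145 cells, against 5.50, 5.54 and 5.62 in control cells. Cd14, whose range over the 24 transfected values was the widest of the list (1.35), had 7.41, 7.03 and 6.73 in miR-145 cells, against 7.33, 7.42 and 7.31 in control cells, and Cd68, with a range of 1.29, had 8.24, 7.89 and 7.71 in miR-145 cells, against 8.89, 7.95 and 7.61 in control cells. The 8 endothelial markers averaged 6.30, 6.24 and 6.43 in miR-145 cells, against 6.17, 6.32 and 6.27 in control cells, and 0 passed (limma, 0 at an unadjusted p under 0.05). Pecam1 had 6.44, 6.29 and 6.73 in miR-145 cells, against 6.23, 6.32 and 6.34 in control cells, and Esam had 6.74, 6.75 and 6.79 in miR-145 cells, against 6.56, 6.78 and 6.79 in control cells.

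Outside the set, the genes whose 24 transfected values followed the mean of the 38 members most closely were mostly known interferon targets. By Pearson's r over the 24 values, which replicate 3 dominates, they were Gbp7 (0.986), Ddx60 (0.980), Cxcl9, Iigp1 and Phf11d (0.978 each), Gbp2b and BC023105 (0.976 each), Tnfsf10 (0.971), Ifit3b (0.968) and Oas1b (0.967). Of these 10, 6 stand in a gene list used here. Cxcl9, a chemokine of the Cxcl10 family, had 7.23, 7.07 and 10.75 in miR-145 cells, against 6.72, 6.77 and 6.79 in control cells. Tnfsf10, the death ligand TRAIL, had 5.72, 5.44 and 8.81 in miR-145 cells, against 5.11, 5.43 and 5.39 in control cells. At the other end were Gnai2 (-0.894), Mmgt1 (-0.863), Rtkn (-0.856), Tmed2 (-0.848) and Brap (-0.843). Gnai2, an inhibitory G protein subunit gene, had 12.72, 12.68 and 12.30 in miR-145 cells, against 13.11, 13.10 and 13.06 in control cells, and fell by 0.52 on the log2 scale (adjusted p = 3.1e-05 by limma), and by 0.39 without replicate 3.

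The other 6 mimics changed few members when all arrays entered the model. Because 1 estimate of the spread per gene is shared by all 8 groups, miR-145 replicate 3 enters these tests too: the SE of the Ifit1 difference between miR-1 and control was 0.58 log2 with it and 0.21 without it. With all arrays, 1 member passed under miR-1 (23.7% of all genes passed in either direction), 0 under miR-34a (11.7%), 2 under miR-22 (14.5%), 1 under miR-365 (20%), 0 under miR-29a (10.3%) and 0 under Let-7b (10.9%). At an unadjusted p under 0.05, limma gave 0 members under miR-34a, 2 under miR-29a and 0 under Let-7b. A further model held the replicate number as a block common to all 8 groups. Its counts are given for mimics whose numbers appeared to pair with those of the control. That was judged from correlations in these data and not from labels. With the number as a block, the counts for them were 2 for miR-22 (20.2% of all genes), 2 for miR-365 (25.7%), 1 for miR-29a (15.8%) and 0 for miR-34a (17%, with 2 members at an unadjusted p under 0.05 by limma). Members thus passed at a share below the background of each of these comparisons. All 6 comparisons, and that of miR-145, use the same control samples.

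The 4 calls with all arrays were as follows. Irf1 fell under miR-1, at 9.38, 9.57 and 9.36 in miR-1 cells, against 9.77, 9.98 and 9.87 in control cells (-0.43 log2, adjusted p = 0.0079 by limma). Its second, dimmer probe set read 7.38, 7.64 and 7.24 in miR-1 cells, against 7.42, 7.50 and 7.62 in control cells, where the groups overlap, and the call was lost when both probe sets were averaged. Irf9 rose under miR-22, at 8.36, 8.34 and 8.50 in miR-22 cells, against 8.02, 7.53 and 7.63 in control cells (0.68 log2, adjusted p = 0.046 by limma). It was lost on leaving out control replicate 2 (0.58) or 3 (0.63) or any 1 miR-22 replicate (0.63 to 0.71). Ly6e rose under miR-22, at 13.64, 13.66 and 13.65 in miR-22 cells, against 13.28, 13.26 and 13.05 in control cells (0.45 log2, adjusted p = 0.0011 by limma), and passed under all 21 alternatives. Eif2ak2 rose under miR-365, at 9.31, 9.29 and 9.56 in miR-365 cells, against 8.60, 8.48 and 8.60 in control cells (0.82 log2, adjusted p = 0.038 by limma). That call was lost on leaving out any 1 control or miR-365 replicate, at 0.74 to 0.87, although the groups did not overlap.

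Without miR-145 replicate 3 in the model, more members passed, in different directions under different mimics. Under miR-1, 11 members fell (11% of all genes) and 1 rose (13.7%). Herc6 had 6.11, 6.03 and 5.96 in miR-1 cells, against 6.73, 6.89 and 7.08 in control cells (-0.86 log2, adjusted p = 6.3e-05 by limma). Ifit1 had 6.07, 6.23 and 6.48 in miR-1 cells, against 6.83, 6.99 and 6.94 in control cells (-0.66 log2, adjusted p = 0.026 by limma). Samd9l (-0.60), Oasl2 (-0.61), Ifit2 (-0.47), Gbp3, Parp9, Tlr3 and Dtx3l (-0.44 each), Irf1 (-0.43) and Ifih1 (-0.41) were also lower, and Rtp4 was higher (0.37). The miR-1 and control values of Herc6 and Ifit1 did not overlap. The share of members called lower stands above the 11% of all genes, and that called higher below the 13.7%.

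Under miR-22, 10 members rose (9.43% of all genes) and 1 fell (6.06%), the rises at a share above the background and the fall below it. With the replicate block the counts were 11 higher (13.4%) and 2 lower (8.58%). Ifit1 was the most changed, at 7.64, 8.09 and 8.16 in miR-22 cells against 6.83, 6.99 and 6.94 in control cells (1.04 log2, adjusted p = 0.0015 by limma). Its values were thus above every control value and below every miR-145 value. Ifih1 had 7.29, 7.66 and 7.86 in miR-22 cells, against 6.91, 7.03 and 7.02 in control cells (0.61 log2, adjusted p = 0.0023 by limma). Irf9 (0.68), Lgals3bp (0.58), Tlr3 (0.52), Ly6e (0.45), Oasl1 (0.41), and Irf7, Eif2ak2 and Rtp4 (0.40 each) also rose, and Oas3 fell (-0.25). Ifit3, which separates the miR-145 samples most, did not pass under miR-22 or any other of the 6 mimics.

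Under miR-365, 7 members rose (12.5% of all genes) and 3 fell (8.66%), the rises at a share above the background and the falls near it. With the replicate block, 11 rose (16.3%) and 3 fell (10.9%). Eif2ak2 (0.82), Oasl2 (0.65), Lgals3bp (0.64), Trim25 (0.48), Ifih1 (0.42), Irf9 (0.41) and Parp9 (0.28) rose. Herc6 fell, at 6.08, 6.54 and 6.11 in miR-365 cells against 6.73, 6.89 and 7.08 in control cells (-0.66 log2, adjusted p = 0.0014 by limma), as did Ifit2 (-0.39) and Stat2 (-0.25). Under miR-29a, 4 members rose (6.08% of all genes) and 1 fell (5.14%). With the replicate block, 8 rose (9.63%) and 1 fell (7.64%). Stat2 had 9.27, 9.41 and 9.38 in miR-29a cells, against 8.78, 8.62 and 8.86 in control cells (0.60 log2, adjusted p = 1e-05 by limma). Irf9 (0.57), Tlr3 (0.47) and Eif2ak2 (0.46) rose with it, and Trim25 fell (-0.27). Stat2 was thus higher than control under miR-29a and lower under miR-365, and Trim25 the reverse.

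Under miR-34a, 3 members rose (6.01% of all genes) and 1 fell (6.43%), the rises at a share near the background and the fall below it. Lgals3bp had 9.78, 9.72 and 9.89 in miR-34a cells, against 9.22, 9.17 and 8.90 in control cells (0.70 log2, adjusted p = 0.0004 by limma). Trim25 (0.38) and Rtp4 (0.23) rose as well and Ifit2 fell (-0.41). With the replicate block, 4 rose (8.93%) and 2 fell (9.56%) under miR-34a. Under Let-7b, Rtp4 alone rose (5.85% of all genes), at 6.47, 6.65 and 6.57 in Let-7b cells against 6.22, 6.24 and 6.14 in control cells (0.36 log2, adjusted p = 0.0016 by limma), and 0 fell, beside 3 at an unadjusted p under 0.05 by limma. Rtp4 passed as higher under 4 of these mimics, miR-1, miR-34a, miR-22 and Let-7b, by 0.23 to 0.40, in comparisons that share the same 3 control values.

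**Figure D4:**
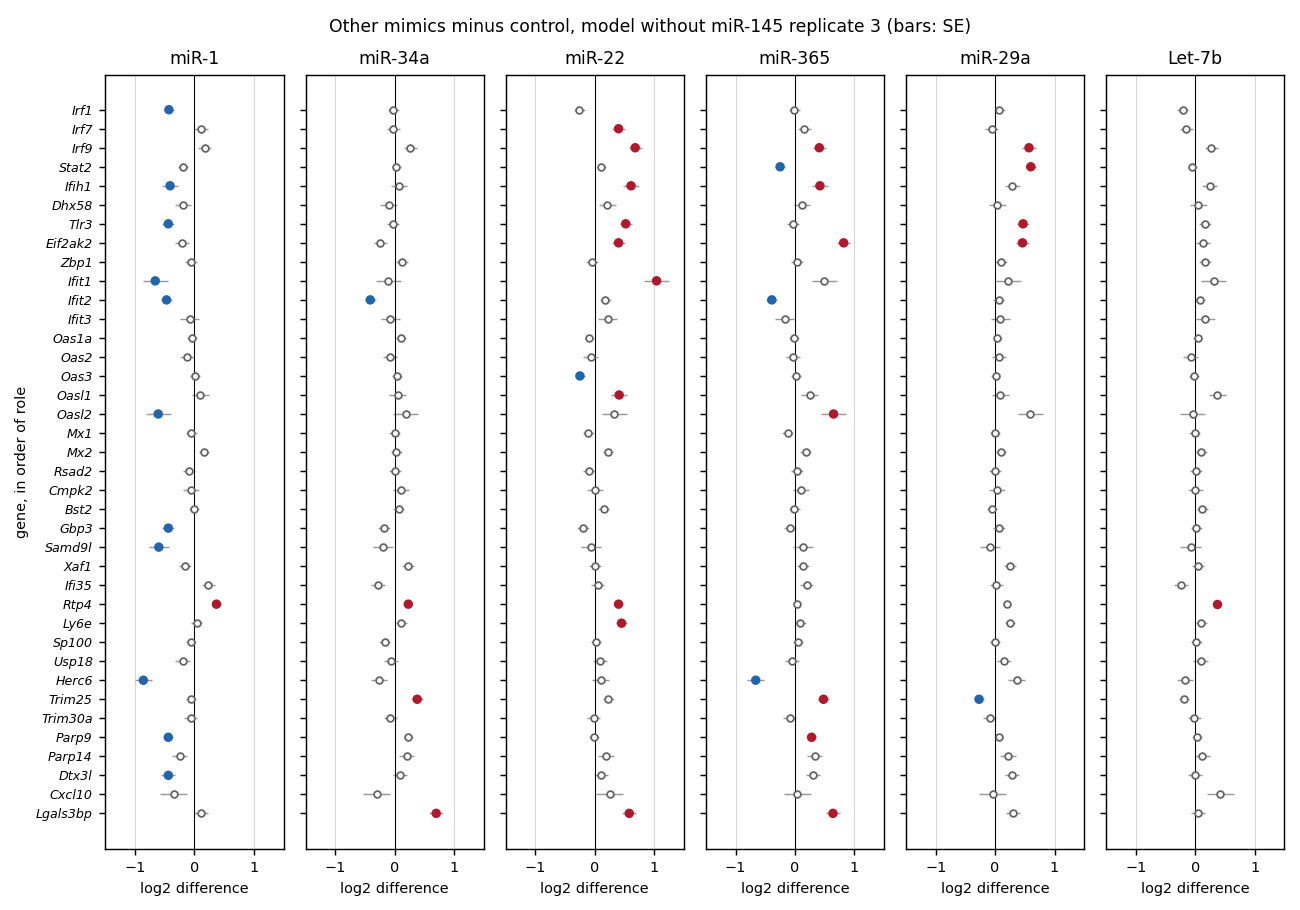
Log2 difference from control for each member under the other 6 mimics, from the model without miR-145 replicate 3, with SE bars. Filled points passed at an adjusted p under 0.05, red as higher and blue as lower: miR-1 has 11 blue points, miR-22 has 10 red points and Let-7b has 1 red point.

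In untransfected cells several members stood more than 1.5-fold higher in the myotube than in the myoblast, each by less than 1 log2 unit. With 1 array each there is no test. The median member was 0.16 log2 units higher in the myotube, beside -0.02 over all genes, and differences ran from -0.48 (Oasl2) to 0.89 (Sp100). More than 1.5-fold higher in the myotube were 7 of 38 members, against 7.42% of all genes, and 0 were as much lower, against 6.11%. Sp100, a nuclear body protein gene, was at 6.51 in the myotube and 5.62 in the myoblast, and Mx2 at 6.13 in the myotube and 5.29 in the myoblast. Zbp1 was at 7.87 in the myotube and 7.11 in the myoblast, and Eif2ak2 at 8.77 in the myotube and 8.05 in the myoblast. The other 3 were Usp18 (higher by 0.72), Ifit3 (0.69) and Tlr3 (0.62). Sp100, Mx2 and Ifit3 lie below the dim mark of 6.67 in both cell states.

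Control-transfected cells stood close to untransfected myoblasts. The median member was 0.07 log2 units higher in control cells, beside -0.01 over all genes, and differences ran from -0.57 (Lgals3bp) to 0.96 (Samd9l). More than 1.5-fold higher, with all 3 control values on the same side, was 1 of 38 members (2.03% of all genes), and 0 were as much lower (3.25%). Samd9l, an antiviral restriction factor gene, had 7.03, 7.13 and 7.33 in control cells, against 6.20 in the myoblast and 6.35 in the myotube. Ifit1 was just inside the limit, at 6.83, 6.99 and 6.94 in control cells against 6.35 in the myoblast. Leaving out control replicate 1 gave 5 such members, and leaving out control replicate 2 gave 2. The myoblast has 1 array and no replicate, so its own spread is unknown.

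**Figure D5:**
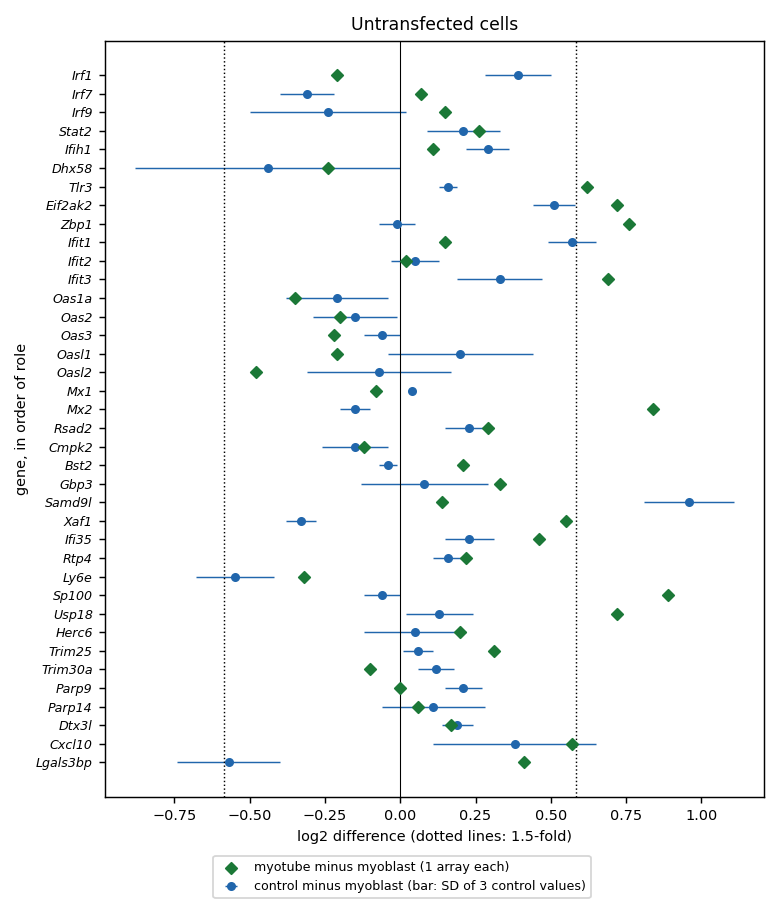
For each member, green diamonds give the myotube minus the untransfected myoblast (1 array each) and blue points the control mean minus the myoblast, with the SD of the 3 control values. Dotted lines mark 1.5-fold; 7 diamonds lie beyond the right-hand line and Samd9l is the single blue point beyond either.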

How the data were processed

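Expression was measured on 29 Affymetrix arrays. The deposited values are log2 signals, made by the authors with RMA in Affymetrix Expression Console 1.1 per the submitters' processing notes; RMA equalises the arrays' distributions and can shrink differences. Genome build and filters are not given in the sources used here. Of 35556 probe sets, 21789 carried 1 symbol, 1621 several and 12146 none, through the platform annotation; several-symbol probe sets named no gene. The number of arrays limits precision. Symbols were used as annotated, except that Rig-I is listed as Ddx58.

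Each control array was averaged with its technical repeat. limma 3.58.1 (R 4.3.3) was fitted to 24 values in 8 groups, with an intensity trend and no dimness filter, and p was 2-sided and adjusted by Benjamini-Hochberg over 19938 genes per comparison. The labels give separate experiments but no further origin, so p measures the spread between these samples. Differences are mimic minus control.

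In the model with a block, the replicate number was a factor common to all 8 groups, miR-1, miR-145 and Let-7b included. Printed differences and adjusted p come from models without the block. Beside the main counts, blocked counts are given for mimics where all 3 same-numbered deviations over all genes correlated with control above 0.1. These were miR-34a (0.21 to 0.67), miR-22 (0.12 to 0.31), miR-365 (0.30 to 0.62) and miR-29a (0.16 to 0.32). The correlations reached -0.04 in miR-1 and in miR-145 and 0.08 in Let-7b.

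Values were printed for the 3 members of largest range in each role, members passing against control (the 10 largest changes where more than 10 passed), the 10 non-members most like the member mean and the 5 most opposite, and in each gene list members that pass or the most variable; a few others were named after their values were seen. Members and lists were chosen with earlier results of these data known. Alternatives changed the block, samples, probe sets, normalization and variance model. The code was tested on simulated data.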

Additional observations from a re-analysis of the deposited data

How the results depend on the processing

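The count of members that passed was 16 for miR-145 against control. It was 29 with the replicate number as a block, 30 with technical repeats as a random block, 10 with robust variances and 1 with only these groups modelled. Of all 19938 genes, 1409, 1002, 733 and 373 passed as higher in these refits, in that order. Against the mean of the other 6 mimics (35), 19 of the 20 members left without the dimmest genes passed, as did 1941 of 11963 genes. With array weights, 23 of 38 members passed, as did 1956 of all genes as higher. The counts that follow are of members alone, without the share of all genes in the same refits. For miR-1 (1), miR-34a (0), miR-22 (2), miR-365 (1), miR-29a (0) and Let-7b (0), in that order, the counts were 12, 3, 9, 10, 5 and 1 with only 2 groups modelled, 12, 4, 10, 10, 4 and 2 without the miR-145 group, and 2, 3, 6, 5, 4 and 2 with array weights. The replicate block together with leaving out miR-145 replicate 3, chosen after seeing the data, gave 14, 6, 13, 14, 9 and 4. miR-365 had 2 with the replicate block, the random block or the dimmest genes left out (20 members), and 0 with quantile normalization or robust variances. miR-29a had 1 with either block, miR-22 had 1 with quantile normalization or robust variances, and miR-1 had 0 with averaged probe sets.

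Leaving out 1 replicate gave 9 to 36 for miR-145 against control, 22 to 37 against the other mimics, 1 to 12 for miR-1, 0 to 4 for miR-34a, 1 to 11 for miR-22, 0 to 10 for miR-365, 0 to 5 for miR-29a and 0 to 1 for Let-7b. The highest counts of these 6 mimics came without miR-145 replicate 3. Past 1.5-fold, the myotube count of 7 was 0 at 2-fold and 2 of the 20 members left without the dimmest genes. The control count of 1 against the myoblast was 0 at 2-fold, 3 with quantile normalization, 2 without technical repeats and 1 to 5 without 1 replicate. Of 348 refits of single called genes, 286 kept the call, 62 lost it and 0 reversed. The causes of these shifts were not tested. Without a second array, the myotube and myoblast carry no error, and 13 members are dim in control cells.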
